A study of Mus musculus with 15 samples.

Results

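The genes described here are 9 that encode mechanosensitive ion channels or channel subunits: Piezo1, Piezo2, Trpv2, Trpv4, Trpm4, Trpm7, Trpc6, Pkd1 and Pkd2. They were chosen by name, matched through their Ensembl identifiers, and make up 9 of the 55416 genes counted and, with 73 transcripts, a small part of the 140789 transcripts quantified. RNA came from 15 cultures of SVI, a conditionally immortalised mouse podocyte line, which was differentiated and seeded on flexible silicone membranes. Experiment 1 held 3 unstretched cultures and 6 low-stretch cultures with a membrane deflection of 5 to 6 mm, and experiment 2 held 3 unstretched cultures and 3 high-stretch cultures with a deflection of 7 to 8 mm. The design text gives single deflections of 6 mm and 8 mm, and the duration and frequency of stretch are not given in the sources used here. The study used stretch as a model of high pressure in the glomerulus, the filtering unit of the kidney, and asked how gene expression and splicing differ with it. All groups share the line and its immortalisation, and nothing says whether the samples of a group came from separate culture passages, so p-values measure only the spread between these samples, which may be technical. Amplitude was not varied within an experiment, so amplitude and experiment cannot be told apart.

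Mechanosensitive channels open when the membrane is stretched or the cell swells, or are regulated by signals that follow, and let cations into the cell. Piezo1 and Piezo2 form large trimers that are gated by membrane tension itself. The TRP family holds Trpv2 and Trpv4, calcium-permeable channels that respond to swelling and heat, Trpm4, which is opened by internal calcium and passes sodium and potassium but hardly any calcium, Trpm7, a magnesium and calcium channel joined to a protein kinase, and Trpc6, which is opened by diacylglycerol. Podocytes wrap the glomerular capillaries and are stretched by the pressure inside them, and mutations of TRPC6 cause an inherited form of glomerulosclerosis. Polycystin-1 and polycystin-2, encoded by Pkd1 and Pkd2, form a complex in primary cilia, and their loss causes polycystic kidney disease.

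The Trpm4 transcripts differ in the exons near the 5′ end, and these sequences are shown because the shares of the transcripts are compared further on. Trpm4-201 (ENSMUST00000042194) is the full protein-coding model, with 25 exons, 4234 bases and a coding length of 3639 bases. Trpm4-209, also protein coding, has 23 exons, lacks exons 1, 3 and 4 of Trpm4-201 and has a coding length of 3198 bases. Trpm4-205 is a short model of 5 exons and 685 bases that skips exon 3, has a coding length of 255 bases and is annotated as a target of nonsense-mediated decay. Trpm4-206 is a short retained-intron model of 4 exons at the 3′ end of the gene. All sequences are from GENCODE M21 on GRCm38, 5′ to 3′ on the transcript strand, and no coordinates are given because the deposited values are on another build. In the 3 junctions the lower-case bases are the last 15 of exon 2 and the capitals are the first 15 of the exon joined to it, and each junction was found in 1 of the 3 transcripts only.
Trpm4-201, exon 2 joined to exon 3: ctccgatgatgcgggAGGGACCTTGTGCCA
Trpm4-205, exon 2 joined to exon 4: ctccgatgatgcgggTTTCTCCGGCTGTCT
Trpm4-209, exon 2 joined to exon 5: ctccgatgatgcgggGGGCCTGGATCGTCA
The exons themselves are coding throughout in Trpm4-201, 175 and 181 bases long, and neither length, nor their sum of 356, is a multiple of 3.
Trpm4 exon 3: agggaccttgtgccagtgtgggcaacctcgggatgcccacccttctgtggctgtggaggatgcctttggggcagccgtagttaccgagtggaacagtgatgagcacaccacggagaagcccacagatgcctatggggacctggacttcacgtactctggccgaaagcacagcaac
Trpm4 exon 4: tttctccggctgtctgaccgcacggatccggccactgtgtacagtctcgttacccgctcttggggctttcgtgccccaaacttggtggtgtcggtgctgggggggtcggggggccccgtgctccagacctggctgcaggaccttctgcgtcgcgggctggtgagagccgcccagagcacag

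**Figure D1:**
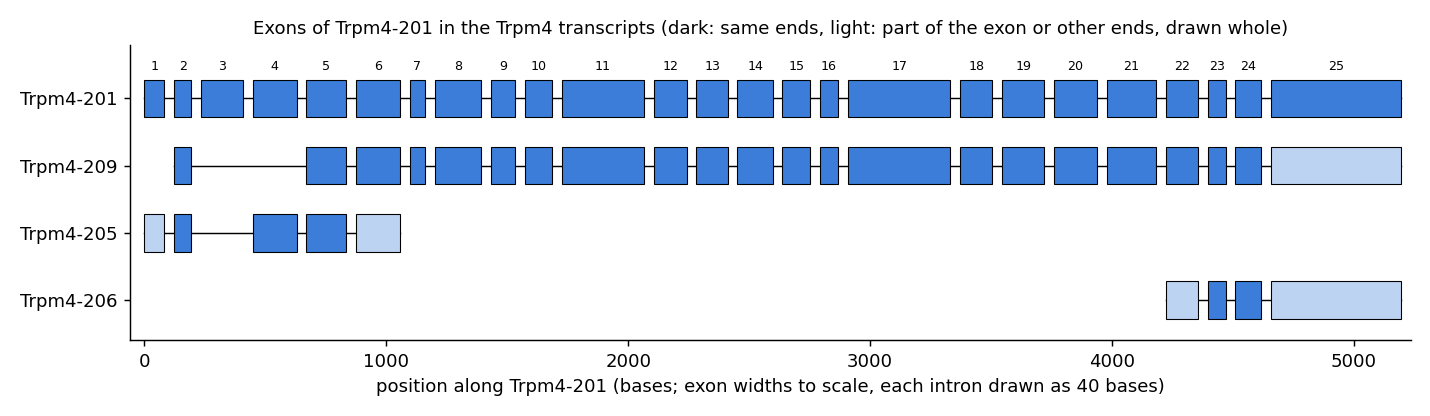
The exons of Trpm4-201 (numbered above, widths to scale in bases, introns drawn at a fixed width) and whether each of 3 other Trpm4 transcripts holds them. Trpm4-209 lacks exons 1, 3 and 4, Trpm4-205 lacks exon 3 and covers only the 5′ end, and Trpm4-206 covers only the 3′ end; light boxes mark exons of which the transcript holds a part or has other ends.

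The coding sequences of the leading Piezo1 and Trpm7 transcripts each differ from that of a second transcript by 3 bases, and these are shown because the shares of both are given further on. The whole Piezo1 transcripts, of 8219 and 8216 bases, also differ by 3 bases in length, while those of Trpm7, of 7107 and 6985 bases, differ outside the coding sequence too. The capitals mark the 3 bases that one transcript has and the other lacks, and both pairs are otherwise of equal coding length.
Piezo1-209: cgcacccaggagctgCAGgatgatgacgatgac
Piezo1-201: cgcacccaggagctggatgatgacgatgac
Trpm7-202: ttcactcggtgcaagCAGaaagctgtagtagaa
Trpm7-201: ttcactcggtgcaagaaagctgtagtagaa

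Total counts ranged from 172.2 to 396.7 M per sample. Of 12 podocyte markers, 7 had a mean of at least 1 CPM (counts scaled to library size with TMM factors) in the unstretched groups and under low stretch, and 5 did under high stretch, with summed levels of 1541.3 to 1678.8 CPM, 1653.5 to 1918.4 CPM, 2094.7 to 2964.3 CPM and 2616.8 to 3260.2 CPM in the unstretched and low-stretch groups of experiment 1 and the unstretched and high-stretch groups of experiment 2. Synpo, Actn4, Kirrel, Podxl and Cd2ap were among those expressed. Wt1, a transcription factor of podocytes, had 5.05 ± 0.993 CPM unstretched and 2.28 ± 1.07 CPM under low stretch (-1.16 ± 0.33, adjusted p = 0.0688 by edgeR), and fell from 2.81 ± 1.75 to 0.545 ± 0.0953 CPM under high stretch (-2.36 ± 0.45, adjusted p = 0.0311). Of the podocyte markers, 1 of 10 tested was lower under low stretch and 2 of 9 under high stretch, as against 3.6% and 2.16% of all genes. None was called higher, as against 1.85% and 1.31% of all genes. The list is too short to read a direction from these counts. The slit diaphragm gene Nphs1 had means of 0.292 to 0.683 CPM, and Tcf21 and Ptpro were at or near 0, so these defining markers of mature podocytes were largely absent from these cultures. Of the markers of other kidney cell types, 1 tubule, 1 endothelial and 1 mesangial gene were called lower under low stretch. Lrp2, an endocytic receptor listed with the tubule markers, fell from 989.7 ± 86.7 to 633.6 ± 108.8 CPM (adjusted p = 0.0227), Ehd3, listed with the endothelial markers, from 45.8 ± 1.1 to 32.9 ± 3.27 CPM (adjusted p = 0.0147), and Pdgfrb, listed with the mesangial markers, by 0.56 ± 0.11 on the log2 scale (adjusted p = 0.0199). The 2 tubule, 2 endothelial and 3 mesangial markers tested had low-stretch medians of 0.02, 0.11 and -0.56. With 2 genes tested in each, the tubule and endothelial medians do not show whether these lists fell as a whole. Only 1 marker of each list had a mean of at least 1 CPM. The tubule markers summed to 926.0 to 1088.8 CPM unstretched and 474.1 to 757.2 CPM under low stretch. The endothelial markers summed to 44.7 to 46.9 and 26.8 to 35.5 CPM. Under high stretch the endothelial sum was 42.4 to 54.7 CPM against 70.2 to 82.6 CPM, while the tubule sums overlapped. No marker of these 3 types was called under high stretch. The 4 immune markers summed to at most 2.17 CPM and the 4 fibroblast markers to at most 1.5 CPM. Of 4 parietal epithelial markers, 3 had a mean of at least 1 CPM in every group, and the list summed to 307.8 to 609.5 CPM. No parietal epithelial or fibroblast marker was called. The part of the markers of other cell types in the channel results was not tested. Unstretched culture 3 of experiment 2 stood apart within its group. Its total was 264.5 M against 181.4 and 172.2 M in the others of the group, while the high-stretch cultures had 267.1, 178.2 and 297.6 M. The median centred log2 CPM of the quartile of genes with the highest GC content was 0.11 there against 0.67 and 0.81, and that of the quartile with the lowest GC content was -0.33 against -0.96 and -1.30. In high-stretch cultures 1, 2 and 3 these medians were 0.23, 0.70 and 0.48 for the highest and -0.74, -1.25 and -0.92 for the lowest quartile. Which cultures of experiment 2 are the unusual ones cannot be told from these values. For several channel genes, estimates are also given without unstretched culture 3 of experiment 2.

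In unstretched cells of experiment 1, the polycystins and Piezo1 were the most abundant channel transcripts per unit length. The summed transcript TPM (a level per transcript length and library) was 95.9 ± 8.34 for Pkd2, 93.9 ± 3.9 for Piezo1 and 49.3 ± 2.13 for Pkd1 (mean ± SD, n = 3). Pkd2 and Piezo1 did not differ beyond their spread, and both were above Pkd1. Trpv4 followed at 36.7 ± 5.6 TPM and Trpm7 at 27.4 ± 5.51 TPM, and the ranges of these neighbours overlapped, 30.5 to 41.5 and 21.4 to 32.3 TPM. Trpm4 stood at 7.05 ± 0.333 TPM, Trpv2 at 0.53 ± 0.111 TPM and Piezo2 at 0.144 ± 0.103 TPM. The order was another one in the unstretched cells of experiment 2, where Piezo1 led with 95.4 ± 3.31 TPM, Pkd1 and Trpv4 lay at 42.1 ± 7.87 and 38.1 ± 1.85 TPM, and Pkd2 lay at 22.3 ± 17 TPM. There Trpm7 had 3.32 ± 2.72 TPM, below Trpm4 with 7.53 ± 0.766 TPM.

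Trpc6 was at the floor of the count data in every group. Its counts were 7, 0 and 1 in the unstretched samples of experiment 1 and 0, 1, 1, 0, 1 and 0 under low stretch, and all 6 samples of experiment 2 had 0. A count of 0 allows up to 3 counts, which is 0.00756 to 0.0174 CPM over the 15 libraries, an interval for counting error only. Trpc6 failed the filter on low counts, so 8 of the 9 genes were tested, and no fold change is given for it.

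**Figure D2:**
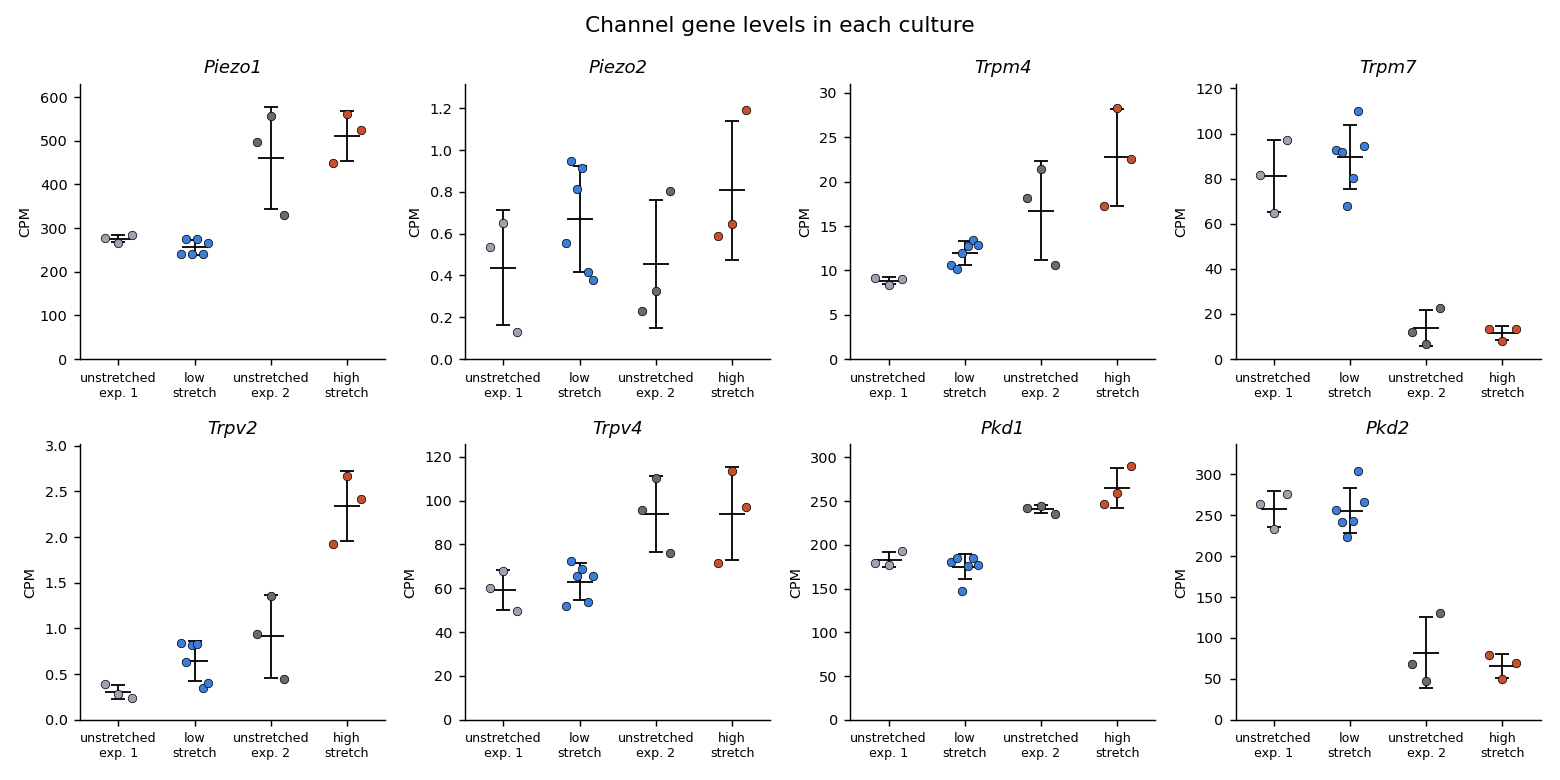
Level of 8 channel genes in each culture (CPM, linear axes from 0); points are cultures, bars are the mean and SD of the group (n = 3, 6, 3 and 3 from left to right). Trpm4 under low stretch lies above its unstretched group without overlap, Trpv2 under high stretch likewise, and Trpm7 and Pkd2 are lower in both groups of experiment 2 than in both groups of experiment 1.

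Under low stretch, Trpm4 was higher and was the only channel gene to pass the test. Its level was 9.14, 8.38 and 9.02 CPM in the unstretched samples and 10.6, 10.1, 11.9, 12.7, 13.4 and 12.9 CPM in the stretched ones. Every stretched culture lay above every unstretched culture. In bulk RNA, fewer cells of a type and less RNA per cell cannot be told apart. The difference was 0.42 ± 0.11 on the log2 scale (SE), a fold change of 1.34, with an adjusted p of 0.0437 by the quasi-likelihood test of edgeR, adjusted over all genes after Benjamini and Hochberg. In that comparison 5.45% of the 21672 genes tested were called, 1.85% of those tested as higher, and 7.81% had stretched samples all above the unstretched ones. Within the 3 runs of neighbouring plate positions, each with 1 unstretched and 2 stretched samples, the difference was 0.18, 0.55 and 0.54.

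The Trpm4 call lay close to the threshold. It remained when low-stretch replicate 1 or 2 was left out (adjusted p = 0.0428 and 0.0376 by edgeR) and was lost without any of the other 7 samples, with an adjusted p of up to 0.173, while the difference stayed between 0.39 and 0.47. DESeq2 gave an adjusted p of 0.00356, and the edgeR fit with plate runs as a block gave 0.00328. The call was lost without a filter on low counts (adjusted p = 0.0652) and with all 15 samples in one edgeR fit (0.303). The summed Trpm4 TPM gave 7.05 ± 0.333 and 7.67 ± 0.979, a difference of 0.11 on the log2 scale with an adjusted p of 0.568 by limma. That scale counts each short transcript as much as a long one, and it moved the median over all genes by -0.115.

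High stretch gave Trpm4 levels of 17.3, 28.3 and 22.6 CPM against 18.2, 21.4 and 10.6 CPM in the unstretched samples of experiment 2. The groups overlapped, and the difference of 0.46 ± 0.29 had an adjusted p of 0.595 by edgeR. The low unstretched value of 10.6 CPM belongs to the culture that stood apart, and without it the difference was 0.25 with an adjusted p of 0.546. Trpm4 transcripts have a GC content of 58.7%, in the highest quartile of genes, so the GC values of that culture move with this level, and their part in the result was not tested. Within the 3 runs of experiment 2 the difference was -0.08, 0.40 and 1.09. Ordered by mean, the groups stood at 8.85 ± 0.409, 11.9 ± 1.32, 16.7 ± 5.56 and 22.7 ± 5.53 CPM in unstretched 1, low stretch, unstretched 2 and high stretch. Only the first pair of neighbours in that order did not overlap.

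Trpv2 was scarce and had the largest difference of the channel genes in both experiments, though it passed the main test in neither. In experiment 1 it had 0.393, 0.281 and 0.242 CPM unstretched and 0.841, 0.632, 0.815, 0.828, 0.351 and 0.398 CPM stretched. The last 2 stretched cultures, both of plate run 3, lay among or next to the unstretched ones, so the groups overlapped. The difference was 1.07 ± 0.33 on the log2 scale with an adjusted p of 0.0843 by edgeR, and 0.88, 1.52 and 0.61 within the 3 runs. In experiment 2 it had 0.934, 1.35 and 0.451 CPM unstretched and 1.92, 2.67 and 2.42 CPM stretched. All 3 stretched cultures lay above all 3 unstretched ones, as did 9.97% of the genes tested in that comparison, and the difference was 1.39 ± 0.38 with an adjusted p of 0.109 by edgeR.

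Of 8 other settings with all samples of a comparison or a block, 2 placed Trpv2 past the threshold under low stretch and 5 under high stretch. With the summed TPM and limma the estimates were 0.37 and 1.05, with adjusted p-values of 0.344 and 0.142. DESeq2 gave adjusted p-values of 0.0104 under low and 0.00677 under high stretch. It called 2694 and 1321 genes, 7.0% and 4.04% of the 38485 and 32681 with a p-value, scarce genes included. The main edgeR test called 1181 and 643 of 21672 and 18524 genes after its filter, so the shares of the 2 tests have unlike bases. With plate runs as a block, the edgeR estimates were 1.02 and 1.49 with adjusted p-values of 0.00255 and 0.000299, in fits that called 28.2% and 8.35% of genes. Within the runs of experiment 2 the difference was 1.03, 0.98 and 2.40. Without the culture that stood apart it was 1.08 with an adjusted p of 0.0361 by edgeR, without the second unstretched culture 1.79 with an adjusted p of 0.0353, and the other 4 samples left out in turn gave no call. Under low stretch the gene was called only when low-stretch replicate 5 was left out, with an adjusted p of 0.0366. The full-length Trpv2-201 transcript took 82.1 ± 3.56, 72.4 ± 7.06, 60.0 ± 8.69 and 59.1 ± 10.5% of the Trpv2 TPM in the 4 groups, and the short noncoding Trpv2-203 took 17 ± 4.29, 26.8 ± 6.97, 37.1 ± 5.34 and 36.6 ± 6.56%. Their levels under high stretch, 0.841 ± 0.0923 and 0.534 ± 0.151 TPM, both lay above the unstretched 0.384 ± 0.0595 and 0.247 ± 0.0956 TPM without overlap, while the split between them differed by 0.04 ± 0.33 on the log2 scale for Trpv2-201 (adjusted p = 0.985 by limma).

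No channel gene passed the edgeR test under high stretch, in which 3.47% of 18524 genes were called, 1.31% as higher and 2.16% as lower. At an unadjusted p under 0.05 there was 1 gene, Trpv2, as against 14.6% of all genes, and DESeq2 called 1. Under low stretch the unadjusted count was 2 of 8, Trpm4 and Trpv2, as against 23.6% of all genes, and DESeq2 called 2. The median difference of the 8 genes was 0.11 under low and 0.16 under high stretch, beside 0.01 and -0.02 over all genes tested.

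**Figure D3:**
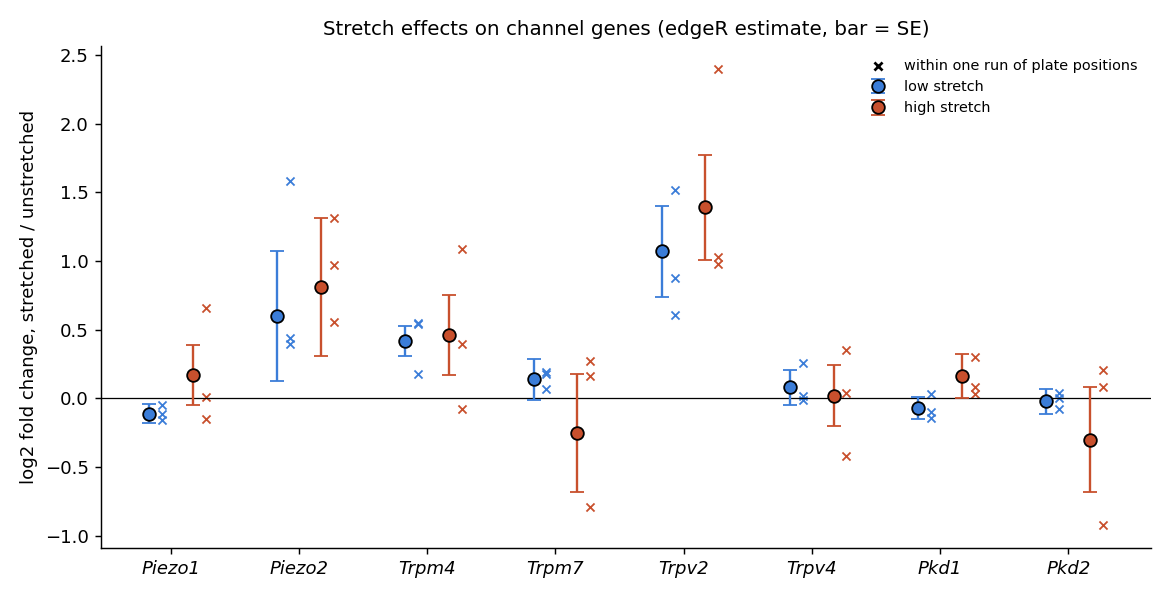
Stretched against unstretched difference of 8 channel genes on the log2 scale, low stretch in blue and high stretch in red; circles with bars are the edgeR estimate and its SE, crosses are the differences within each of 3 runs of plate positions. Trpv2 is above 0 in all 6 runs, whereas Trpm7 and Pkd2 each have 1 run of experiment 2 far below the others, at -0.79 and -0.92.

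The Piezo genes did not pass the test in either experiment. Piezo1 had 277.0, 266.7 and 283.0 CPM unstretched and a lowest, median and highest value of 240.9, 253.1 and 275.9 CPM under low stretch. The groups overlapped and differed by -0.11 ± 0.07 (adjusted p = 0.396 by edgeR). The summed TPM, at 93.9 ± 3.9 unstretched and 77.7 ± 7.66 stretched, had groups that all but touched. The lowest unstretched value was 89.5 TPM and the highest stretched value 89.4 TPM. The difference was -0.28 with an adjusted p of 0.0902 by limma, on a scale that moved the median over all genes by -0.115. In experiment 2 Piezo1 had 497.1, 555.9 and 330.6 CPM unstretched and 448.7, 560.4 and 523.7 CPM stretched, a difference of 0.17 ± 0.22 with an adjusted p of 0.865 by edgeR. The lowest of these 6 values is again the culture that stood apart, without which the difference was 0.0077. Ctu2, on the opposite strand, shares 24.6% of the exon bases of Piezo1, and the strand setting of the counting is not given in the sources used here, so reads of the pair may not be separated.

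Piezo2, the family member known from touch neurons, was near 1 CPM or below in every culture. Its level was 0.534, 0.65 and 0.128 CPM unstretched and 0.376 to 0.946 CPM under low stretch in experiment 1. It was 0.232, 0.326 and 0.804 CPM unstretched and 0.587, 0.645 and 1.19 CPM stretched in experiment 2. The edgeR estimates were 0.60 ± 0.47 and 0.81 ± 0.50 with adjusted p-values of 0.467 and 0.577, and both pairs of groups overlapped. Every run difference was above 0, at 0.44, 0.40 and 1.58 in experiment 1 and 1.31, 0.97 and 0.56 in experiment 2, and with plate runs as a block the adjusted p was 0.0396 and 0.0538. Without unstretched culture 3 of experiment 1 the low-stretch estimate was 0.17, and without unstretched culture 3 of experiment 2 the high-stretch estimate was 1.59 with an adjusted p of 0.0317 by edgeR.

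Trpv4, the osmotically gated calcium channel, was well expressed and its groups overlapped in both experiments. Its values were 60.3, 67.8 and 49.8 CPM unstretched and 51.7, 65.5 and 72.6 CPM as the lowest, median and highest under low stretch, a difference of 0.08 ± 0.13 with an adjusted p of 0.754 by edgeR. In experiment 2 they were 95.6, 110.2 and 75.9 CPM unstretched and 71.4, 113.6 and 97.0 CPM stretched, a difference of 0.02 ± 0.22 with an adjusted p of 0.989. With the summed TPM the sign of both estimates turned, to -0.03 and -0.09.

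Trpm7 had 81.7, 64.8 and 97.0 CPM unstretched and 67.8, 92.3 and 110.0 CPM as the lowest, median and highest under low stretch. The groups overlapped and differed by 0.14 ± 0.15 (adjusted p = 0.605 by edgeR), or by -0.02 in the summed TPM. Under high stretch it had 13.3, 8.1 and 13.1 CPM against 11.9, 6.73 and 22.7 CPM, a difference of -0.25 ± 0.43 with an adjusted p of 0.903. Without the culture at 22.7 CPM the difference was 0.36, and within the runs it was 0.16, 0.27 and -0.79.

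Of the polycystin pair, Pkd1 had 178.7, 177.1 and 193.3 CPM unstretched and 147.5, 178.2 and 185.4 CPM as the lowest, median and highest under low stretch, a difference of -0.07 ± 0.08 with an adjusted p of 0.62 by edgeR. Under high stretch its 3 values of 246.4, 258.6 and 289.8 CPM lay above the unstretched 241.8, 244.7 and 235.7 CPM without overlap, but the difference of 0.16 ± 0.16 had an adjusted p of 0.793. Tsc2, on the opposite strand, shares 3.98% of the exon bases of Pkd1. Pkd2 had 263.2, 233.2 and 276.1 CPM unstretched and 223.0, 249.4 and 304.2 CPM as the lowest, median and highest under low stretch, a difference of -0.02 ± 0.09 with an adjusted p of 0.937 by edgeR. In experiment 2 it had 68.0, 47.3 and 130.8 CPM unstretched and 78.9, 50.0 and 69.0 CPM stretched. The highest of the 6 values is the culture that stood apart. The difference was -0.30 ± 0.38 with an adjusted p of 0.854, turned to 0.25 without that culture, and was 0.21, 0.08 and -0.92 within the runs.

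The difference between the high-stretch and the low-stretch effect was tested as a contrast over all 15 samples. No channel gene was called, in a test that called 0.0% of 22015 genes, and none of the 8 had an unadjusted p under 0.05, as against 2.48% of all genes; DESeq2 called none either. The estimates ranged from -0.40 ± 0.43 for Trpm7 to 0.29 ± 0.51 for Trpv2. For Trpm4 the contrast was 0.01 ± 0.29.

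The levels of most channel genes also differed between the unstretched groups of the experiments. Comparing experiment 2 with experiment 1, 6 of the 8 tested genes passed the edgeR test, 4 higher and 2 lower, in a comparison that called 62.5% of all genes tested, 29.7% as higher and 32.7% as lower, so the channel genes' count lay near the background. Trpm7 fell by 2.58 ± 0.41 on the log2 scale, from 81.2 ± 16.1 to 13.8 ± 8.15 CPM (adjusted p = 0.00533), and Pkd2 fell by 1.67 ± 0.34, from 257.5 ± 22 to 82.0 ± 43.5 CPM (adjusted p = 0.00567). Trpv2 rose by 1.55 ± 0.42, Trpm4 by 0.90 ± 0.27, Piezo1 by 0.73 ± 0.22 and Trpv4 by 0.65 ± 0.21, with adjusted p-values of 0.0134, 0.018, 0.0199 and 0.0242. The calls of Trpm7 and Pkd2 held when any 1 of the 6 samples was left out. That of Trpv2 was lost without sample 3 of experiment 1 (adjusted p = 0.0522 by edgeR). Those of Piezo1 and Trpm4 were lost without any sample of experiment 1 or sample 1 of experiment 2, and that of Trpv4 without sample 1 or 3 of experiment 1 or sample 1 or 2 of experiment 2, with adjusted p-values of up to 0.105. Pkd1 and Piezo2 had estimates of 0.38 ± 0.15 and 0.06 ± 0.63 with adjusted p-values of 0.0579 and 0.943. Without unstretched culture 3 of experiment 2, which stood apart, Pkd1 was called (0.35, adjusted p = 0.0134 by edgeR). The estimates of Trpm7, Pkd2 and Piezo2 were then -3.18, -2.22 and -0.72.

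These differences moved with GC content. The median difference between the unstretched groups was -1.52, -0.41, 0.45 and 0.90 from the lowest to the highest quartile of genes by GC content of the gene's transcript with the longest coding sequence. Trpm7, at 40.1% GC, lies in the lowest quartile and fell by more than its median, and Pkd2, at 49.0%, lies in quartile 2 and fell by more than the median there. Piezo1, Trpm4 and Trpv4, at 59.0, 58.7 and 59.0%, lie in the highest quartile and rose by no more than its median. Trpv2, at 53.7%, lies in quartile 3 and rose by more than its median. In the summed TPM only the falls of Trpm7 and Pkd2 passed, at -3.33 and -2.36 (adjusted p = 0.00948 and 0.0102 by limma), and the 4 rises shrank to between 0.02 for Piezo1 and 0.25 for Trpv2. The summed TPM also moved the median over all genes by -0.565. The part of GC content in these results was not tested, and the experiment as a batch and the state of the cells cannot be told apart here.

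Of the channel transcripts, Trpm4-201 had the largest usage difference under low stretch. Trpm4-201, the full-length coding transcript, took 31.5, 28.9 and 29.7% of the Trpm4 TPM in the unstretched samples and 51.0, 48.8, 47.2, 45.2, 44.9 and 39.8% under low stretch. The 2 groups did not overlap, and the mean share was 30.0 ± 1.33 against 46.2 ± 3.85%. On the log2 scale of its TPM against that of the other Trpm4 transcripts the difference was 0.97 ± 0.13, with an unadjusted p of 2.73e-05 and an adjusted p of 0.0764 by limma over 27822 transcripts, so it did not pass. Of all transcripts tested 0.018% passed, and the adjusted p of Trpm4-201 ranged from 0.0281 to 0.306 over 8 other settings. The 3 under 0.05 were the plate runs as a block, a pseudocount of 1 TPM and no filter, which called 0.169, 0.277 and 0.11% of transcripts. Left out in turn, only low-stretch replicate 6 brought the transcript under the threshold, at 0.0272. The share was higher by 18.5, 17.3 and 12.6 percentage points within the 3 plate runs.

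In TPM, Trpm4-201 stood at 2.30, 1.93 and 2.14 unstretched and at 3.31, 3.41, 3.34, 3.57, 4.01 and 3.44 under low stretch. These ranges are well apart, and the higher count of the gene went with a higher level of the transcript that holds the junction of exons 2 and 3 shown above. Trpm4-209, which lacks exons 3 and 4, had shares of 18.4 ± 3.13 and 11 ± 4.2%, and its usage differed by -0.86 ± 0.30 (unadjusted p = 0.0187, adjusted p = 0.404 by limma). The retained-intron Trpm4-206 had shares of 21.0 ± 3.16 and 15.8 ± 3.8%, with a usage difference of -0.49 ± 0.22 (adjusted p = 0.499 by limma). Trpm4-205, which skips exon 3, had shares of 23.1 ± 3.94 and 20.4 ± 2.83%, with a usage difference of -0.22 ± 0.17 (adjusted p = 0.708 by limma).

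Under high stretch, much of the spread of Trpm4-201 lay in the unstretched samples. Whether transcript usage responded differently to low and high stretch was not tested. Trpm4-201 took 53.4, 49.1 and 35.1% unstretched and 56.8, 51.7 and 49.4% stretched, groups that overlapped, with a usage difference of 0.39 ± 0.29 and an adjusted p of 0.786 by limma. Its TPM was 4.01, 4.08 and 2.38 unstretched and 4.47, 5.19 and 4.90 stretched, without overlap. The low values of 35.1% and 2.38 TPM are those of the culture that stood apart. Within the 3 runs the share of Trpm4-201 was higher by 3.45, 2.61 and 14.3 percentage points, the last in the run of that culture. With 1 sample left out, its usage difference ranged from 0.08 to 0.60. The share of Trpm4-205 was 29.8 ± 3.45% unstretched and 21.4 ± 2.61% stretched, with no overlap, but its usage difference of -0.62 ± 0.18 had an adjusted p of 0.483 by limma. Trpm4-206 was listed at 0 in 1 unstretched sample, and its shares were 6.54 ± 6.25 and 9.62 ± 4.34%. Trpm4-209 had 14.8 ± 5.96 and 12.7 ± 5.7%.

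**Figure D4:**
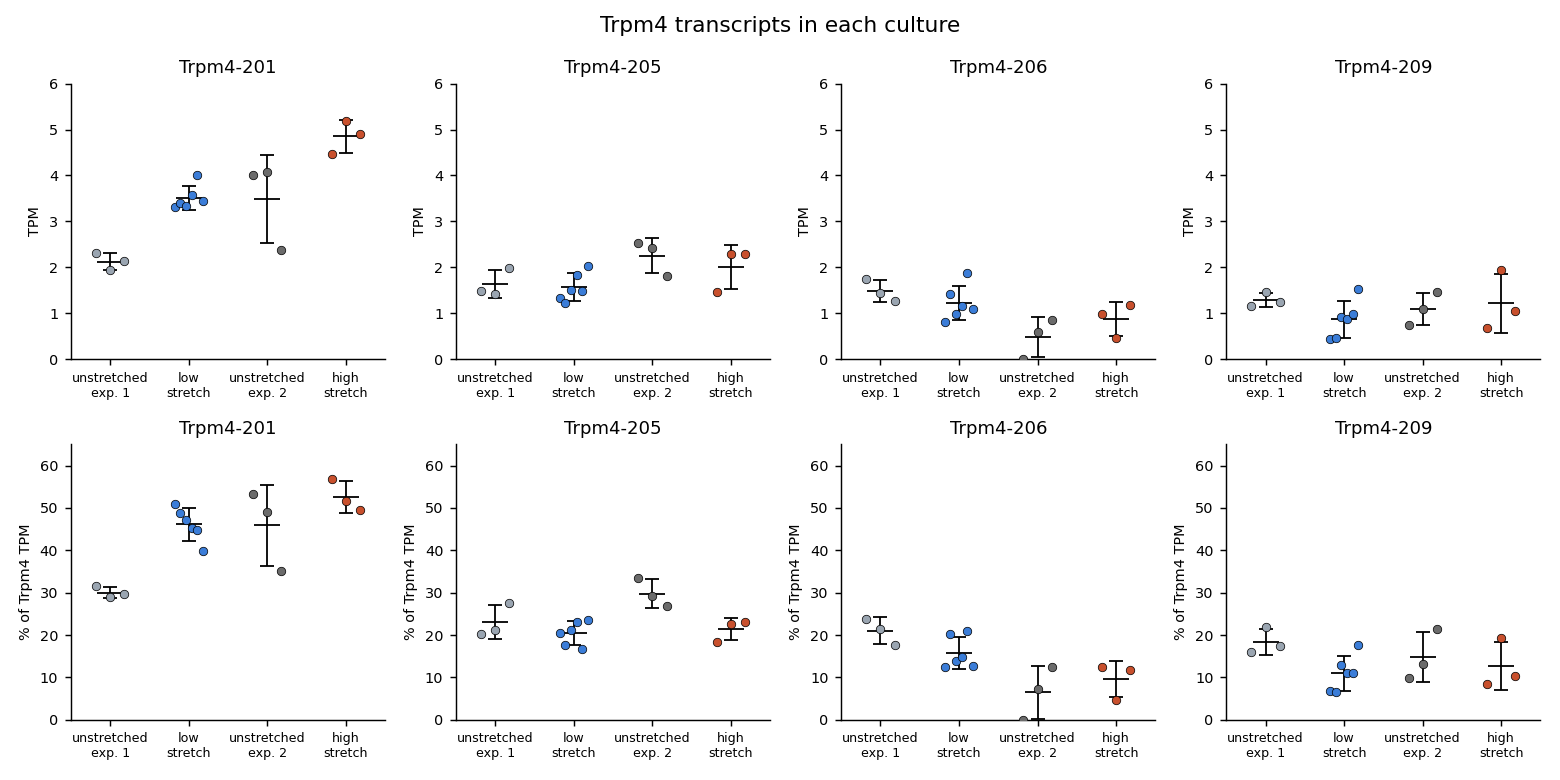
Level (upper row, TPM) and share of the summed Trpm4 TPM (lower row, %) of 4 Trpm4 transcripts in each culture; points are cultures and bars the mean and SD of the group. Trpm4-201 lies between 28.9 and 31.5% in the unstretched samples of experiment 1 and between 39.8 and 51.0% under low stretch, and the unstretched samples of experiment 2 spread from 35.1 to 53.4%.

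Across the channel genes, 18 transcripts were tested for usage in each experiment and none passed. How many of all transcripts had groups without overlap was not counted. The transcript shares and levels described as not overlapping, above and below, therefore have no background beside them. At an unadjusted p under 0.05 there were 3 under low stretch, all of Trpm4, and 1 under high stretch, Trpm4-205, as against 9.97% and 8.09% of all transcripts, and 0.0% of all transcripts passed under high stretch. Piezo1-209, the leading Piezo1 transcript, took 58.9 ± 0.803, 61.4 ± 1.98, 67.7 ± 3.55 and 65.2 ± 1.95% in unstretched 1, low stretch, unstretched 2 and high stretch, and Piezo1-201, which lacks 3 of its bases, took 10.8 ± 1.14, 11.4 ± 0.735, 12.1 ± 0.443 and 12.3 ± 0.956%. The decay-annotated Piezo1-204 took 22.3 ± 1.38, 22.3 ± 1.18, 17.9 ± 2.74 and 20.5 ± 1.8%.

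Trpm7-202 took 65.7 ± 1.24, 67.1 ± 1.75, 63.8 ± 0.99 and 59.9 ± 1.81% of the Trpm7 TPM in the same order. Its 3 high-stretch shares lay below the unstretched ones, with a usage difference of -0.21 ± 0.13 and an adjusted p of 0.73 by limma. Trpm7-201, without the 3 bases, took 10.9 ± 0.932, 12.4 ± 1.47, 18.4 ± 11.5 and 9.52 ± 4.51%, the retained-intron Trpm7-211 took 12.1 ± 0.957, 10.3 ± 1.88, 11.6 ± 12.1 and 19.9 ± 1.34%, and the retained-intron Trpm7-207 took 6.87 ± 1.17, 6.29 ± 1.12, 1.56 ± 1.65 and 6.54 ± 7.74%. The wide SDs of experiment 2 go with the low Trpm7 level there. Trpv4 was split between Trpv4-201, with group means of 63.0 to 67.8%, and Trpv4-205, with 29.4 to 31.0%, which have the same coding length of 2613 bases. Pkd2-201 took 94.0 to 97.6%. Pkd1 was split between the full-length Pkd1-201 with group means of 41.5 to 44.0%, the short retained-intron Pkd1-210 with 22.7 to 25.6%, the decay-annotated Pkd1-205 with 16.7 to 18.3%, and the short Pkd1-206 with 8.95 to 9.52%. The low-stretch shares of Pkd1-205 lay below the unstretched ones, with a usage difference of -0.15 ± 0.08 and an adjusted p of 0.559 by limma.

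Other channel genes were taken from lists of 33 further mechanosensitive or swelling-activated channels and 20 further TRP channels. Of the first list 27 were tested under low stretch, with 0 higher and 1 lower, and 25 under high stretch, with 2 higher and 1 lower. The medians were -0.02 and 0.02, beside 0.01 and -0.02 over all genes. Of all genes tested, 1.85% were called higher and 3.6% lower under low stretch, and 1.31% and 2.16% under high stretch. Kcnk2, which encodes the stretch-activated potassium channel TREK-1, rose under high stretch from 0.135 ± 0.0328 to 0.943 ± 0.28 CPM, a difference of 2.85 ± 0.35 with an adjusted p of 0.00814 by edgeR. Under low stretch it had 0.328 ± 0.29 and 0.748 ± 0.313 CPM, 1.17 ± 0.55 with an adjusted p of 0.23. Its run differences were 1.86, 0.63 and 1.78 in experiment 1 and 3.19, 1.95 and 3.03 in experiment 2.

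Lrrc8c, a subunit of the volume-regulated anion channel, rose under high stretch from 29.4 ± 3.64 to 74.6 ± 11.6 CPM, 1.36 ± 0.20 with an adjusted p of 0.0142 by edgeR. Its low-stretch estimate was 0.69 ± 0.23 with an adjusted p of 0.104. Kcnma1, the large-conductance potassium channel opened by calcium and voltage, fell under high stretch from 10.9 ± 4.22 to 3.53 ± 0.418 CPM, a difference of -1.60 ± 0.32 with an adjusted p of 0.0368, and its low-stretch estimate was -0.88 ± 0.52 with an adjusted p of 0.332. Kcnk10, which encodes the related potassium channel TREK-2, fell under low stretch from 26.2 ± 1.78 to 17.7 ± 1.09 CPM, -0.57 ± 0.08 with an adjusted p of 0.00506, and had -0.37 ± 0.19 with an adjusted p of 0.44 under high stretch, in groups that did not overlap, as in 10.7% of all genes tested in that direction. Whether the effects on these genes differ between low and high stretch is covered by the contrast that called no gene. Among the further TRP channels, 9 were tested under low and 7 under high stretch, with 1 and 0 called, as against 5.45% and 3.47% of all genes. The call among them was Trpm1, at 0.233 ± 0.0313 CPM unstretched and 0.0671 ± 0.0404 CPM under low stretch, -1.76 ± 0.41 with an adjusted p of 0.0361, and its high-stretch estimate was -2.16 ± 0.56 with an adjusted p of 0.0852. With plate runs as a block, edgeR also called Kcnk2, Lrrc8c and Kcnma1 under low stretch (adjusted p = 0.00239, 0.00112 and 0.0011) and Trpm1 under high stretch (0.0022), in fits that called 28.2% and 8.35% of all genes.

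Among 14 partners of the channels, 12 were tested under low and 11 under high stretch, and 1 rose and 1 fell in each, the same 2 genes, as against 5.45% and 3.47% of all genes called in either direction. The medians were 0.07 and -0.11. Fyn, a Src-family kinase that phosphorylates slit diaphragm proteins and TRP channels, rose from 54.6 ± 8.91 to 89.6 ± 8.21 CPM under low stretch (0.71 ± 0.12, adjusted p = 0.01 by edgeR) and from 56 ± 5.88 to 103.8 ± 8.98 CPM under high stretch (0.91 ± 0.17, adjusted p = 0.0313). Plce1, a phospholipase C that makes diacylglycerol and is also 1 of the podocyte markers, fell from 8.13 ± 3.17 to 2.09 ± 0.483 CPM (-1.96 ± 0.23, adjusted p = 0.00314) and from 4.84 ± 2.54 to 0.858 ± 0.344 CPM (-2.48 ± 0.45, adjusted p = 0.0262). All 6 run differences of Plce1 lay between -2.63 and -1.64.

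Of 33 genes of calcium signalling, 32 were tested in each experiment. Under low stretch 4 rose and 2 fell, 18.8% of those tested, as against 5.45% of all genes. Under high stretch 1 rose, 3.12% as against 3.47%, so this count lay near the background. The medians were 0.07 and 0.09. Store-operated entry, in which Stim proteins sense calcium in the endoplasmic reticulum and open Orai channels, had members in both directions under low stretch. Stim1 fell from 58.1 ± 4.82 to 39.5 ± 3.31 CPM (-0.56 ± 0.08, adjusted p = 0.00628 by edgeR), Stim2 rose from 23.2 ± 1.15 to 31.7 ± 2.25 CPM (0.44 ± 0.08, adjusted p = 0.013) and Orai1 rose from 11 ± 0.897 to 14.6 ± 1.14 CPM (0.40 ± 0.10, adjusted p = 0.0469). Itpr1, a receptor that releases stored calcium, fell from 236.1 ± 25.7 to 169.5 ± 12 CPM (-0.48 ± 0.08, adjusted p = 0.0101). The calcium-activated protease gene Capn1 rose by 0.48 ± 0.12 (adjusted p = 0.0494). The gene that rose under high stretch was Itpr3, another release receptor, from 52.4 ± 15.1 to 164.0 ± 2.96 CPM (1.67 ± 0.22, adjusted p = 0.0105). Its low-stretch estimate was 0.89 ± 0.29 with an adjusted p of 0.0931. With plate runs as a block Itpr3 was also called under low stretch (adjusted p = 7.7e-05 by edgeR) and Capn1 under high stretch (0.0236).

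These calls rested on few samples to different degrees. The low-stretch calls of Kcnk10, Fyn, Plce1 and Stim1 held when any 1 of the 9 samples was left out. Those of Orai1, Capn1, Trpm1, Stim2 and Itpr1 held in 1, 2, 4, 7 and 8 of the 9 cases, and the highest adjusted p was 0.238. Every unstretched sample, left out, ended the calls of Orai1, Capn1 and Trpm1, as did low-stretch replicates 1 and 4. Replicates 2 and 3 also ended those of Orai1 and Capn1, and replicate 6 that of Orai1. Unstretched replicate 1 or 3 ended that of Stim2, and unstretched replicate 3 that of Itpr1. Under high stretch the calls of Kcnk2, Lrrc8c, Itpr3, Kcnma1, Plce1 and Fyn held in 4, 3, 3, 2, 2 and 1 of 6 cases, with adjusted p-values of up to 0.209, and each of these 6 genes kept its direction throughout. All 6 calls were lost without unstretched replicate 1 or high-stretch replicate 3, 5 without high-stretch replicate 1 (all but Kcnk2), those of Kcnma1, Plce1 and Fyn without high-stretch replicate 2, and that of Fyn without unstretched replicate 2. With the summed TPM and limma, the high-stretch calls of Lrrc8c, Kcnma1, Fyn and Plce1 were lost (adjusted p = 0.101, 0.208, 0.224 and 0.15), and so were the low-stretch calls of Orai1, Stim2 and Capn1 (0.0995, 0.0525 and 0.0856). In one edgeR fit of all 15 samples the calls of Kcnma1 under high stretch (0.0975) and of Orai1, Stim2, Itpr1 and Capn1 under low stretch (0.31, 0.0994, 0.226 and 0.287) were lost. Kcnma1 was also lost with a mean count of at least 100 (0.053) and Orai1 without a filter on low counts (0.0668). The edgeR replicate block, on replicates 1 to 3 only, lost the low-stretch calls of Kcnk10 and Fyn (adjusted p = 0.0559 and 0.0629). It also lost those of Trpm1, Orai1, Stim2, Itpr1 and Capn1 (0.124, 0.161, 0.117, 0.0833 and 0.081).

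The genes most like Trpm4 over the 15 samples were Arhgef19, Npr1, Hilpda, Insyn1 and Zbtb3. The measure was the root mean square difference of log2 CPM, centred on the mean of each experiment, and it was 0.092, 0.097, 0.109, 0.109 and 0.116 among 12938 genes with a median of 0.399. Under low stretch their edgeR estimates were 0.33, 0.47, 0.35, 0.45 and 0.42, and Insyn1 and Zbtb3 passed the test (adjusted p = 0.0317 and 0.0338). Trpm4 was picked for this because it had the lowest p of the channel genes, so these values are a description.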

How the data were processed

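Poly(A) RNA was sequenced as stranded paired-end libraries, per the labels' protocols. The authors deposited raw gene counts and transcript TPM. STAR 2.7.5c, featureCounts from Subread 2.0.0, Salmon 1.9.0, DESeq2 1.38.3 and build mm39 are listed in the submitters' processing notes, without roles. GENCODE M21 named 52135 genes and 137189 transcripts. Gene counts went into edgeR 4.0.16 under R 4.3.3, with TMM factors, filterByExpr, the quasi-likelihood test and Benjamini-Hochberg adjustment at 0.05. Usage was tested with limma 3.58.1 on the log2 ratio of a transcript to the sum of all others of its gene, each with 0.1 TPM added, for genes of at least 1 TPM and shares of 5 to 95%. DESeq2 1.42.0, other filters, scalings, pseudocounts, blocks and left-out samples were alternatives. Both tests were tested on simulated data. Plate runs were inferred from plate position codes in the sample descriptions, as an unstretched sample and the stretched ones at neighbouring positions. No label names a run or a batch. Members, lists and tests were chosen with earlier results of these data known. All 9 channel genes, their transcripts with a mean share of at least 5% in genes of at least 0.5 TPM, all Trpm4 transcripts tested, called genes of the lists and the 5 genes most like the channel gene with the lowest p were named. Some genes of the lists are not reported here. The GC comparison covers 99.0% of the genes tested between unstretched groups and was added after the data were seen.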

Additional observations from a re-analysis of the deposited data

Results flagged for a closer look

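In groups of 4 to 10 samples, the highest or lowest value was set against its neighbour by Dixon's criterion, in 28 low-stretch groups of 6 values. Pkd1 had a lowest low-stretch value of 147.5 CPM, far from the next. The share of Pkd1-206 had a lowest low-stretch value of 7.66% of the Pkd1 TPM, likewise far from the others. These are 2 of the 28 groups, and chance gives about 1 in 20.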

How the results depend on the processing

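Replicate numbers did not pair the samples: the deviations of same-numbered samples correlated at 0.365, -0.139 and -0.44 in experiment 1 and at -0.163, 0.45 and 0.241 in experiment 2. In experiment 1, samples of the same plate run correlated at a mean of 0.399 and those of different runs at -0.296. The replicate block gave low-stretch Trpm4 0.29 (adjusted p = 0.346 by edgeR). The low-stretch count of 1 channel gene was 2 with DESeq2, 3 with the plate position block, 0 with the replicate block, without a filter on low counts, with all 15 samples in one fit and with summed TPM, and 0 to 1 with 1 sample left out. The high-stretch count of 0 was 1 with DESeq2, without a filter, with all 15 samples, and with the replicate block or the plate position block, which are the same grouping there, and 0 to 2 with 1 sample left out. The baseline count of 6 was 2 with summed TPM and 2 to 7 with 1 sample left out. The usage count of 0 under low stretch was 1 with a pseudocount of 1 TPM, without a filter or with the plate position block, and 0 to 1 with 1 sample left out. Under high stretch the usage count stayed at 0 with 1 sample left out. The channel gene count for the difference between effects also stayed at 0 with 1 sample left out, and usage was not tested for that difference. Some estimates turned sign. With summed TPM these were Trpm7 and Trpv4 under low stretch (-0.02 and -0.03), Trpv4 under high stretch (-0.09), the difference between effects for Piezo2 and Trpm7 (-0.03 and 0.01), and the baseline of Piezo2 and Pkd1 (-0.14 and -0.24). The contrast of Piezo2 was -0.07 with the replicate block, that of Trpm4 was -0.0098 with DESeq2 and -0.01 with RLE size factors, and the baseline of Piezo2 was -0.06 with a mean count of at least 100. With 1 sample left out the ranges that crossed 0 were -0.04 to 0.20 for Trpv4 and -0.07 to 0.03 for Pkd2 under low stretch. Under high stretch they were -0.56 to 0.36 for Trpm7, -0.10 to 0.17 for Trpv4, -0.56 to 0.25 for Pkd2, -0.54 to 0.05 for Itpr1, and, for usage, -0.12 to 1.67 for Trpm4-206 and -0.63 to 0.07 for Trpm4-209. For the contrast they were -0.21 to 1.00 for Piezo2, -0.18 to 0.22 for Trpm4, -0.73 to 0.23 for Trpm7, -0.24 to 0.08 for Trpv4 and -0.58 to 0.27 for Pkd2, and for the baseline -0.72 to 0.46 for Piezo2. The causes were not tested. Trpc6 had 11 counts over all 15 libraries, so differences in it were not detectable at this depth.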
